A study of Canis lupus familiaris with 20 samples.

Results

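The genes described here are 5 genes by which fat cells are recognised: ADIPOQ, LEP and CFD, which encode the secreted proteins adiponectin, leptin and adipsin, LPL, which encodes lipoprotein lipase, and FABP4, which encodes a fatty acid binding protein. They were taken by gene name from the array files, which gave 4 of the 42034 probes, 1 each for ADIPOQ, LEP, LPL and CFD. No probe carries the gene name FABP4. A table of dog genes assigns the name LOC608476 on the array to FABP4, and the file's own descriptions assign 2 further probes to LPL, so that 7 probes of 5 genes are described, out of 10265 gene symbols on the array. All 7 entered the tests, and none had a saturated spot or a spot marked as an outlier.

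The genes were measured in muscle of 10 dogs, all aged 2 years, on 2-colour arrays. The groups are 4 dogs labelled normal, 4 labelled as affected by Duchenne muscular dystrophy (DMD), and 2 labelled as DMD escapers, dystrophic dogs known for a mild course. The labels used here name neither the muscle sampled, nor the breed, sex or mutation, nor any treatment. Each dog was hybridised on 2 arrays, once in Cy5 and once in Cy3, against a common reference, which was RNA from 1 normal individual. Values are log2 ratios of dog over reference averaged over the 2 arrays, so that 0 means the level of the reference and each step of 1 is a 2-fold difference.

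In dystrophic muscle, fibres that are lost can be replaced by connective tissue and by fat. The fat cells are thought to arise from mesenchymal cells between the fibres, the fibro-adipogenic progenitors, which become adipocytes under the transcription factor PPARG. Adiponectin is made almost entirely by mature adipocytes, and leptin mainly so. The other 3 genes are less restricted: muscle fibres make LPL, capillary endothelium and macrophages make FABP4, and macrophages can make adipsin.

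The probes are 60 bases long. The array files place ADIPOQ at chr34:22416624-22416683 on the plus strand, LEP at chr14:11075961-11076020 on the minus strand and CFD at chr20:60928043-60928357 on the minus strand. The stretch of 315 bases given for CFD is longer than its probe, as for a probe that joins neighbouring exons of the transcript. LPL lies at chr25:40071119-40071178, its probes 2 and 3 at chr25:40069498-40069557 and chr25:40081507-40081566, and FABP4 at chr29:31653631-31653690. The genome build of these positions is not given in the sources used here, and exon and UTR annotation was not used. The chromosome equalled that in the gene table for all 5 genes. The 3 probes of the secreted proteins are shown, because the results turn on what they detect. Averaged over 2 arrays, CFD separated the normal from the dystrophic dogs, as 3.55% of probes did with dystrophic dogs higher. ADIPOQ and LEP did not.
ADIPOQ: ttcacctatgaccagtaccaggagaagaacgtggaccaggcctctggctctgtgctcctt
LEP: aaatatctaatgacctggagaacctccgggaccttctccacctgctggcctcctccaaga
CFD: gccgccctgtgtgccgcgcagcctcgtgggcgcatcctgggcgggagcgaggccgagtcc
The CFD probe is the richest in G and C of the 7, at 78.3%, against 55.0% for ADIPOQ, 53.3% for LEP and 35.0% to 43.3% for FABP4 and the LPL probes.

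No library depth exists for arrays, and the small number of dogs limits the precision. Muscle fibre RNA was present throughout: MB, which encodes myoglobin, exceeded background clearly on 20 of 20 arrays. Between 30.5% and 60.2% of probes were well above background per array in the channel of the dog, and the 2 arrays of a dog correlated across probes with r between 0.627 and 0.939. The highest share and the lowest r both belonged to affected 4. Each of the 5 slides held 2 dogs of 1 group, and both escapers shared 1 slide, so that slide and escaper group cannot be told apart. The normal and the affected dogs lay on 2 slides each and shared none, so slides were not balanced between these groups either. The escapers differed widely from each other: a list of 11 muscle fibre genes averaged 0.78 in escaper 1 and −1.67 in escaper 2, against 0.29 to 0.53 in the normal dogs. Values without escaper 2 are therefore given beside the escaper differences of LEP, CFD, FABP4 and LPL. They are also given for list genes named where leaving out escaper 2 changed the sign or moved the value by over 1.5 times. For ADIPOQ, the range with each dog left out is given near the end. In whole muscle, fewer cells of a type and less RNA per cell cannot be told apart.

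Adiponectin and leptin RNA did not separate the groups. Averaged over 2 arrays, adipsin was higher in every dystrophic dog than in every normal dog, as were 3.55% of probes tested. The pooling of affected and escaper dogs was added after the values were seen. Group means of ADIPOQ lay within 0.07 of each other on the log2 scale. CFD lay 0.93 above normal in affected dogs and 1.55 above normal in escapers. FABP4 was highest in escaper 2 and overlapped between normal and affected dogs, and LPL was lowest in the same escaper. No difference of any of the 7 probes passed an adjusted p of 0.05 in limma's moderated test with Benjamini-Hochberg adjustment over 16008 probes. The background is equally sparse: 0.0187% of probes passed between affected and normal dogs, 0% between escapers and normal dogs and 0% between escapers and affected dogs. At an unadjusted p under 0.05, 5.06% of probes were higher and 7.38% lower in affected than in normal dogs, 9.67% of probes were higher and 8.78% lower in escapers than in normal dogs, while 2.95% were higher and 2.26% lower in escapers than in affected dogs. For none of the 7 probes did all dogs of the first group lie below all dogs of the second, as 7.42%, 15.7% and 4.15% of probes did in the 3 comparisons and 5.04% did for all dystrophic against normal dogs.

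**Figure D1:**
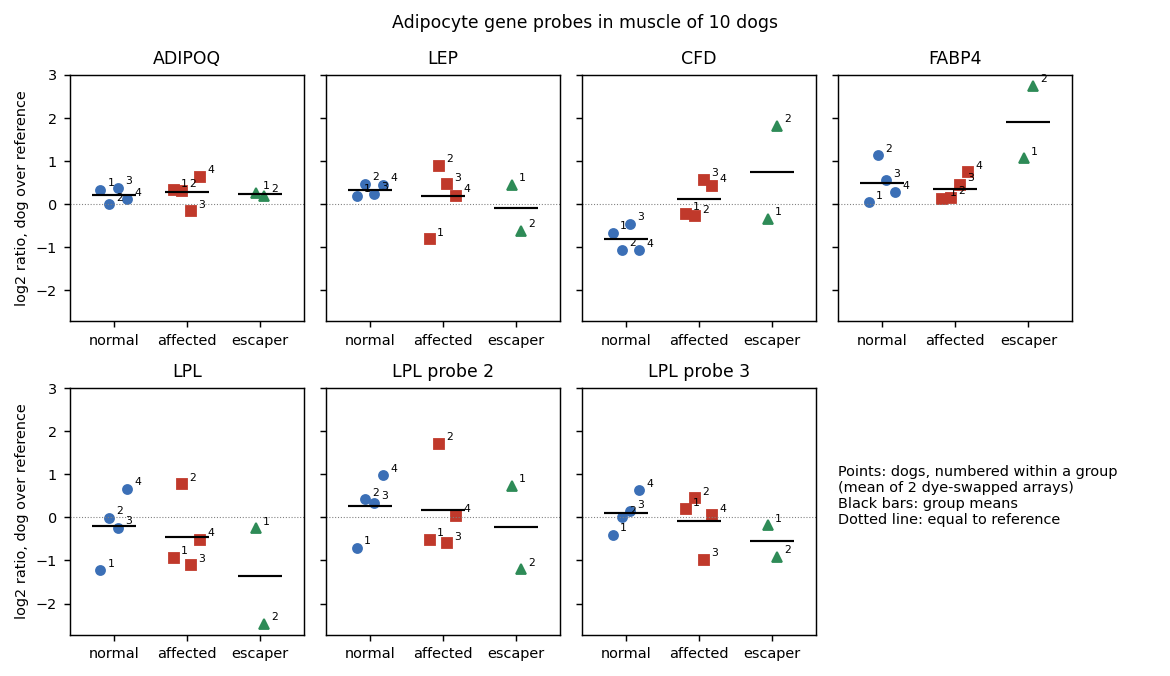
Log2 ratio of dog over reference for the 7 probes in each dog, with points numbered by dog within the normal, affected and escaper groups and black bars at the group means. CFD is the panel in which all 6 dystrophic dogs lie above all 4 normal dogs, and escaper 2 is the highest dog for CFD and FABP4 and the lowest for LPL.

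ADIPOQ encodes adiponectin, the hormone released in the largest amounts by adipocytes. Its log2 ratio was 0.33, −0.0019, 0.37 and 0.11 in normal dogs 1 to 4. It was 0.32, 0.31, −0.17 and 0.64 in affected dogs 1 to 4, and 0.26 and 0.19 in escapers 1 and 2. Affected dogs held both the highest and the lowest value, so the groups overlapped fully. The mean was 0.20 ± 0.18 (SD, n = 4) in normal dogs, 0.27 ± 0.33 (SD, n = 4) in affected dogs and 0.22 ± 0.05 (SD, n = 2) in escapers. The difference of affected minus normal was 0.07 (95% interval −0.33 to 0.47, adjusted p = 0.890), that of escaper minus normal was 0.02 (−0.47 to 0.51, adjusted p = 0.971), and that of escaper minus affected was −0.05 (−0.54 to 0.44, adjusted p = 0.970). The upper bounds correspond to less than a doubling, but signal near background compresses ratios, and the intervals do not cover that.

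The ADIPOQ probe was dim. In the channel of the dog it was well above background on 11 of 20, 4 of them from normal dogs, 4 from affected dogs and 3 from escapers, with a median signal 2.57 times background. It passed the filter through normal 1, normal 3, affected 1, affected 4 and escaper 2, where both arrays were well above background. The 2 arrays of a dog differed from each other by up to 0.71 (normal 3), which is larger than any ADIPOQ difference between groups. Affected minus normal turned to −0.10 without background subtraction and to −0.039 with the dog in Cy3 only. In the plot of Cy5 against Cy3 values, the 10 dogs spread less along the line of equal values for ADIPOQ (r = 0.543 over 10 dogs) than for FABP4 (r = 0.966) or CFD (r = 0.903).

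**Figure D2:**
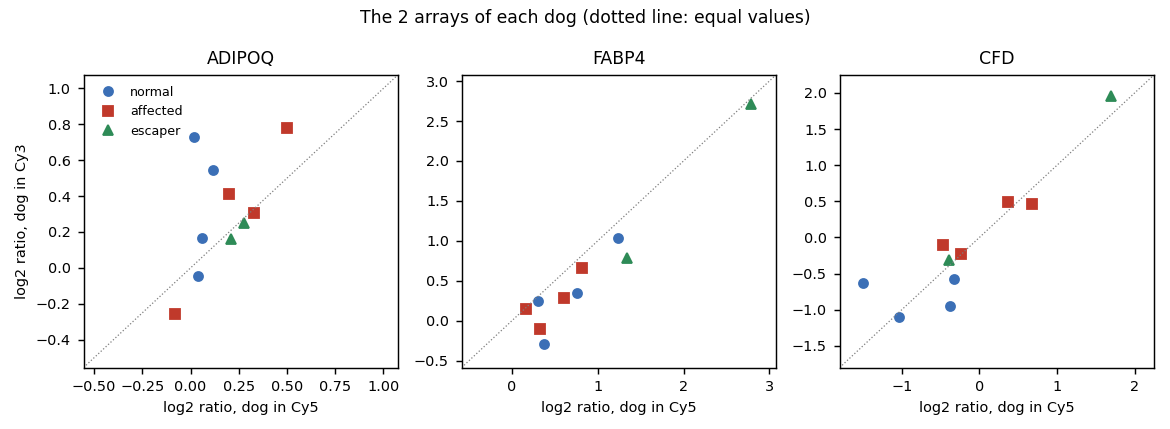
Log2 ratio of dog over reference on the array with the dog in Cy5 (horizontal) and on the array with the dog in Cy3 (vertical), 1 point per dog, for ADIPOQ, FABP4 and CFD, with a dotted line of equal values. Escaper 2 is the top right point for FABP4 and CFD on both arrays, and the ADIPOQ axes cover a much narrower range.

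LEP encodes leptin, the hormone that reports fat stores to the brain. Its log2 ratio was 0.20, 0.47, 0.23 and 0.45 in normal dogs 1 to 4. It was −0.82, 0.89, 0.46 and 0.20 in affected dogs and 0.45 and −0.62 in escapers. The normal dogs lay close together, and the dystrophic dogs reached both above and below them. The mean was 0.34 ± 0.14 (SD, n = 4) in normal dogs, 0.18 ± 0.72 (SD, n = 4) in affected dogs and −0.08 ± 0.76 (SD, n = 2) in escapers. The difference was −0.15 (95% interval −0.94 to 0.63, adjusted p = 0.876) for affected minus normal, −0.42 (−1.38 to 0.54, adjusted p = 0.622) for escaper minus normal and −0.27 (−1.23 to 0.69, adjusted p = 0.903) for escaper minus affected. Without escaper 2, the remaining escaper lay 0.11 above the normal mean and 0.27 above the affected mean. Signal was well above background on all 20 arrays, at a median of 11.9 times background.

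CFD encodes adipsin, or complement factor D, the protease that cleaves factor B in the alternative pathway of complement. Its log2 ratio was −0.66, −1.06, −0.45 and −1.07 in normal dogs 1 to 4, all below the reference. It was −0.23, −0.28, 0.57 and 0.43 in affected dogs. It was −0.35 in escaper 1 and 1.82 in escaper 2. On the average of the 2 arrays, every dystrophic dog lay above the highest normal dog, the closest pair being escaper 1 and normal 3. With the dog in Cy5 alone the groups overlapped. There normal 1 and normal 3, at −0.37 and −0.33, lay above affected 2, at −0.46, and escaper 1, at −0.39. With the dog in Cy3 alone they did not overlap. The 2 arrays of a dog differed for CFD by a median of 0.23 and by up to 0.87 (normal 2). As a fold of the reference, CFD ranged from 0.476 to 0.730 in normal dogs and from 0.823 to 1.49 in affected dogs, and was 0.787 in escaper 1 and 3.54 in escaper 2. The mean was −0.81 ± 0.31 (SD, n = 4) in normal dogs, 0.12 ± 0.44 (SD, n = 4) in affected dogs and 0.74 ± 1.53 (SD, n = 2) in escapers.

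CFD was 1.91-fold higher in affected than in normal dogs, a log2 difference of 0.93 (SE 0.42, 95% interval −0.0043 to 1.87), with a limma adjusted p of 0.405. No affected dog was as low as the highest of the 4 normal dogs, which was also so for 5.28% of the probes tested with affected dogs higher. The two-sided exact permutation test over dogs gave p = 0.0286, the smallest value that 70 arrangements allow. It is 1 of 28 such tests on these probes, and it takes no account of the slides. Leaving out each dog in turn kept this difference between 0.78 and 1.07.

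CFD was 2.93-fold higher in escapers than in normal dogs (log2 difference 1.55, SE 0.51, 95% interval 0.40 to 2.70, adjusted p = 0.204). Both escapers lay above all normal dogs, as did 14.5% of probes, and the exact permutation p of 0.0667 is the smallest that 15 arrangements allow. The size of this difference rested on escaper 2. Without it, the remaining escaper lay 0.47 above the normal mean. Without escaper 1, the difference was 2.63, a value that rests on 1 escaper.

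Between escapers and affected dogs, CFD differed by 0.62 (SE 0.51, 95% interval −0.53 to 1.76, adjusted p = 0.818), and the groups overlapped. This difference was −0.47 without escaper 2 and 1.70 without escaper 1, each value resting on the 1 escaper left. With affected and escaper dogs as 1 group, a comparison added after the values were seen, CFD was 2.20-fold higher in the 6 dystrophic than in the 4 normal dogs (log2 difference 1.14, SE 0.39, 95% interval 0.27 to 2.00, adjusted p = 0.188). All 6 lay above all 4, as did 3.55% of probes. The two-sided exact permutation p was 0.0238 over 210 arrangements, and without escaper 2 the difference was 0.84. In that comparison 0.106% of probes passed the adjusted threshold, and CFD was not among them. The CFD signal cleared background on all 20 arrays, at a median of 9.15 times background.

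**Figure D3:**
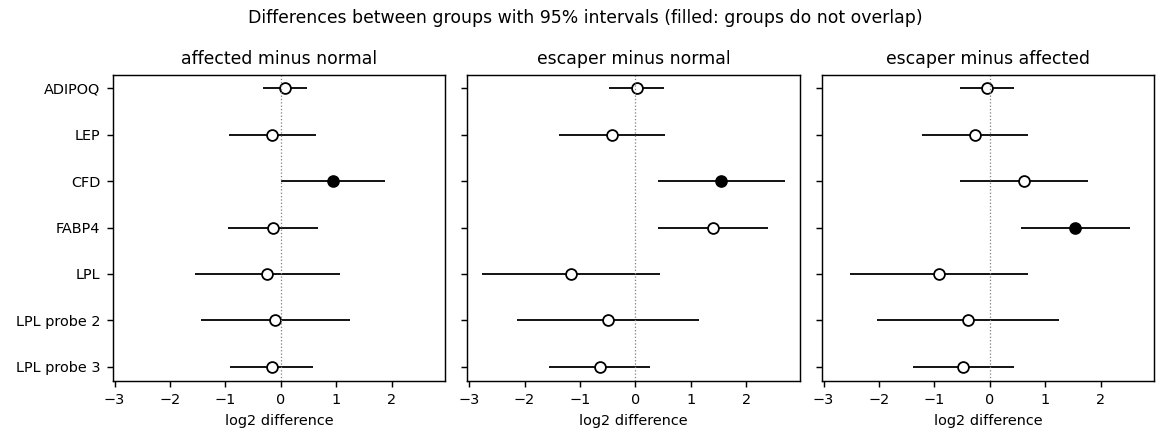
Log2 difference between group means for the 7 probes in the 3 comparisons, with 95% intervals from the limma fit over 10 dogs and filled points where the groups do not overlap. CFD is filled in both comparisons with normal dogs, at 0.93 and 1.55, and FABP4 only in escaper minus affected, at 1.55.

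FABP4 encodes the fatty acid carrier of adipocytes, also called aP2. Its log2 ratio was 0.04, 1.13, 0.55 and 0.28 in normal dogs 1 to 4. It was 0.11, 0.15, 0.44 and 0.74 in affected dogs, and 1.06 and 2.75 in escapers. Normal and affected dogs covered much the same range. Escaper 1 lay above all affected dogs but below normal 2, and escaper 2 lay far above every other dog, at 6.72 times the reference. The mean was 0.50 ± 0.47 (SD, n = 4) in normal dogs, 0.36 ± 0.29 (SD, n = 4) in affected dogs and 1.91 ± 1.19 (SD, n = 2) in escapers.

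The FABP4 difference of affected minus normal was −0.14 (95% interval −0.95 to 0.67, adjusted p = 0.891). That of escaper minus normal was 1.41 (SE 0.44, 95% interval 0.42 to 2.40, adjusted p = 0.201), with overlapping groups. That of escaper minus affected was 1.55 (SE 0.44, 95% interval 0.55 to 2.54, adjusted p = 0.800). Here both escapers lay above all 4 affected dogs, as did 3.69% of probes, with an exact permutation p of 0.0667. As for CFD, the size rested on 1 dog. Without escaper 2 the differences were 0.56 and 0.70. Without escaper 1 they were 2.25 and 2.39, again from 1 escaper. The probe was bright on all 20 arrays, at a median of 107 times background.

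LPL encodes the lipase that releases fatty acids from circulating lipoproteins at the capillary wall. The log2 ratio of the probe named LPL was −1.23, −0.01, −0.24 and 0.66 in normal dogs 1 to 4. It was −0.93, 0.77, −1.11 and −0.52 in affected dogs, and −0.25 and −2.46 in escapers. Normal and affected dogs overlapped over most of their range, and escaper 2 lay below all other dogs, at 0.181 times the reference. The mean was −0.21 ± 0.79 (SD, n = 4) in normal dogs, −0.45 ± 0.85 (SD, n = 4) in affected dogs and −1.36 ± 1.56 (SD, n = 2) in escapers. The difference was −0.24 (95% interval −1.55 to 1.07, adjusted p = 0.883) for affected minus normal, −1.15 (−2.76 to 0.45, adjusted p = 0.403) for escaper minus normal and −0.91 (−2.52 to 0.70, adjusted p = 0.816) for escaper minus affected. Without escaper 2, the escaper minus normal value was −0.05 and the escaper minus affected value was 0.20.

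The 3 LPL probes correlated with each other but did not order the dogs alike. Affected 1 was at −0.93 for LPL and −0.51 for probe 2, but at 0.19 for probe 3. Across the 10 dogs, LPL correlated with probe 2 at r = 0.949 and with probe 3 at r = 0.844, and probes 2 and 3 correlated at r = 0.773, values that share the same RNA, arrays and reference. Probe 2 ranged from −0.70 to 0.98 in normal dogs and from −0.60 to 1.71 in affected dogs, and was 0.74 in escaper 1 and −1.21 in escaper 2. Its differences were −0.10 for affected minus normal, −0.49 for escaper minus normal and −0.39 for escaper minus affected. The second of these turned to 0.48 without escaper 2, and the third to 0.58.

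LPL probe 3 ranged from −0.40 to 0.63 in normal dogs and from −0.98 to 0.44 in affected dogs, and was −0.18 in escaper 1 and −0.92 in escaper 2. Its differences were −0.17 for affected minus normal, −0.64 for escaper minus normal and −0.48 for escaper minus affected. Without escaper 2 the last 2 values were −0.28 and −0.11. The groups overlapped for both further probes in all 3 comparisons, with adjusted p between 0.413 and 0.955. Probe 2 was well above background on 20 arrays. Probe 3 was so on 12 arrays, only 1 of them from an escaper, and passed the filter through normal 2, normal 4 and affected dogs 1, 2 and 4.

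The 5 genes did not move as 1 group across dogs. Pearson's r between FABP4 and CFD was 0.679 over 10 dogs and −0.05 without escaper 2, and r between LPL and CFD was −0.76 over 10 dogs and −0.47 without escaper 2. LEP and LPL correlated at r = 0.722 over 10 dogs and at r = 0.567 without escaper 2. ADIPOQ correlated with the first probe of each of the other 4 genes at r between −0.18 and 0.05. All such values share the reference and are given as a description. In escaper 2, CFD and FABP4 were at their highest and LPL and LPL probe 2 at their lowest, LPL probe 3 was lower only in affected 3, and ADIPOQ, at 0.19, was unremarkable.

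The genes whose values over the 10 dogs were most like each of the 5 were sought among 6119 other genes tested. CFD was followed most closely by EFEMP1, which encodes the matrix protein fibulin-3, with r = 0.985, then by PPL with r = 0.983 and ANTXR2 with r = 0.981. Without escaper 2 these were 0.960, 0.961 and 0.951. FABP4 was followed by RBP7, a retinol-binding protein (r = 0.952, and 0.882 without escaper 2), by SP3 (0.943, and 0.827) and by SLC27A3 (0.941, and 0.699). The likeness of FABP4 thus rested in part on escaper 2, more so than that of CFD.

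LEP was followed by BCAT2, the mitochondrial aminotransferase of branched-chain amino acids, at r = 0.993, by APOBEC2 at r = 0.963 and by BMPR1B at r = 0.958. LPL was followed by FZD9 at r = 0.954, by TBRG4 at r = 0.929 and by ACADVL, an enzyme of mitochondrial fatty acid oxidation, at r = 0.926. ADIPOQ had the weakest neighbours, TRIB2 at r = 0.857, BTRC at r = 0.830 and DTX2 at r = 0.815. The share of genes with r over 0.9 was 2.50% for CFD, 0.882% for LEP, 0.490% for FABP4, 0.147% for LPL and 0% for ADIPOQ.

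Other adipocyte genes were likewise dim or close to the reference. PPARG, the master regulator of adipocyte formation, cleared background on 0 of 20 arrays and was not tested. PLIN1, the protein that coats adipocyte lipid droplets, cleared background on 10 arrays and ranged from −0.08 to 0.30 over the 10 dogs. CIDEC, which enlarges lipid droplets, did so on 9 arrays and ranged from −0.30 to 0.26. PLIN4, a further lipid droplet gene, did so on 11 arrays, 6 from normal dogs, 4 from affected dogs and 1 from escapers. It ranged from −0.43 to 0.41, with means of 0.22 in normal dogs, −0.07 in affected dogs and −0.18 in escapers. The groups overlapped, with adjusted p of 0.585 and 0.409 against normal dogs. No probe carried the symbols CEBPA or LIPE. Of ADIPOQ, PPARG, PLIN1, PLIN4 and CIDEC, none was thus well above background on more than 11 of 20 arrays.

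Lists of genes around the 5 were set beside all 6120 genes tested, whose median difference was 0.05 for affected minus normal, 0.0044 for escaper minus normal and −0.03 for escaper minus affected. In the same order, 56.1%, 50.4% and 46.0% of all genes tested were higher, the background for the counts below. Among the genes of 6 pathway lists and 5 cell type lists, none passed the limma adjusted threshold in any of the 3 comparisons. Of 12 lipid droplet and lipolysis genes tested, 7 were higher in affected dogs (median 0.04), 9 in escapers against normal dogs (median 0.10) and 6 in escapers against affected dogs (median −0.02). At an unadjusted p under 0.05, 1, 2 and 1 of them were higher and none lower. Of all 6120 genes, 369, 601 and 187 were higher and 429, 570 and 159 lower at that p.

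BSCL2, which encodes seipin, a protein needed to form lipid droplets, was 0.48 higher in affected than in normal dogs (adjusted p = 0.337) and 0.56 higher in escapers (adjusted p = 0.230). All dystrophic dogs lay above all normal dogs for BSCL2, as for 3.55% of probes, and without escaper 2 the escaper difference was 0.30. CIDEA, a further lipid droplet protein, was −0.56 for affected minus normal (adjusted p = 0.47) and 0.73 for escaper minus affected (adjusted p = 0.800), or 0.40 without escaper 2. MGLL, the lipase of monoglycerides, was 0.84 for escaper minus normal (adjusted p = 0.238), but escaper 1, at −0.46, was close to the normal dogs and escaper 2 was at 1.08, so that the difference without escaper 2 was 0.077.

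Of 6 transcription factors of adipogenesis, 3 were higher and 3 lower in each comparison, with medians of −0.04, 0.02 and 0.10. ZNF423, a factor of preadipocyte commitment, was 0.70 higher in escapers than in normal dogs (adjusted p = 0.244), and 0.27 higher without escaper 2. EBF1, an early B-cell factor that also takes part in adipocyte formation, was 0.99 higher (adjusted p = 0.272), with escaper 1 at −0.13 and escaper 2 at 1.93, and −0.034 without escaper 2. Of 8 genes of fatty acid and triglyceride synthesis, 5, 5 and 4 were higher, with medians of 0.09, 0.13 and −0.08. FASN, fatty acid synthase, was 0.33 higher in affected dogs (adjusted p = 0.376), though well above background on only 5 arrays. GPD1, which supplies the glycerol backbone and is also a muscle enzyme, differed by −1.41 in affected dogs and −1.63 in escapers (adjusted p = 0.421 and 0.305). The first value was −0.79 without affected 1, and the second −0.44 without escaper 2.

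Of 9 genes that act with LPL or in fatty acid uptake, 5, 4 and 5 were higher in the 3 comparisons, with medians of 0.03, −0.15 and 0.18. CD36, the fatty acid transporter, was −0.38 for affected minus normal (adjusted p = 0.380), or −0.25 without normal 4. No affected dog reached the lowest normal dog, as for 7.42% of probes. VLDLR, a lipoprotein receptor that works with LPL, was −1.09 for escaper minus affected (adjusted p = 0.800), and ranged from 0.21 to 0.87 in 9 dogs against −1.53 in escaper 2, without which the difference was −0.17. APOE and LRP1, a lipoprotein ligand and its receptor that macrophages also express, were 2.01 and 2.19 higher in escapers than in normal dogs (adjusted p = 0.189 and 0.205). In escaper 1 they were −0.09 and −0.20, and in escaper 2 they were 2.31 and 2.38. Without escaper 2 the differences were 0.81 and 0.89.

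Of 12 adipokine receptors, other adipokines and insulin-response genes, 8, 6 and 7 were higher, with medians of 0.22, 0.17 and 0.21. IRS1, the insulin receptor substrate, differed by −0.69 in affected dogs (adjusted p = 0.343). RARRES2, which encodes the adipokine chemerin, was 1.05 higher in escapers than in normal dogs (adjusted p = 0.294), with escaper 1 at −0.48 inside the normal range and escaper 2 at 1.61, and 0.0038 without escaper 2. INSR, the insulin receptor, was −0.79 for escaper minus affected (adjusted p = 0.800), and −0.39 without affected 1. LEPR, the leptin receptor, was well above background on 0 arrays.

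Of the alternative complement pathway around adipsin, 4 genes were tested, and 4, 4 and 3 of them were higher in the 3 comparisons, with medians of 0.37, 0.93 and 0.57. ITGAM, a subunit of complement receptor 3 on myeloid cells, was 0.69 higher in affected dogs and 1.19 higher in escapers than in normal dogs (adjusted p = 0.376 and 0.193). All dystrophic dogs lay above all normal dogs for this gene, as for 3.55% of probes. ITGAM was well above background on 9 arrays, and its escaper difference was 0.60 without escaper 2. CFB, factor B and thus the substrate of adipsin, was at −0.56 in escaper 1 and 1.18 in escaper 2. C5AR1, the receptor for C5a, was 1.45 higher in escapers than in normal dogs (adjusted p = 0.277), with escaper 1 at −1.46 and escaper 2 at 1.23, and 0.11 without escaper 2. Without escaper 2, 2 of the 4 genes were higher in the remaining escaper than in normal dogs, with a median of 0.05.

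**Figure D4:**
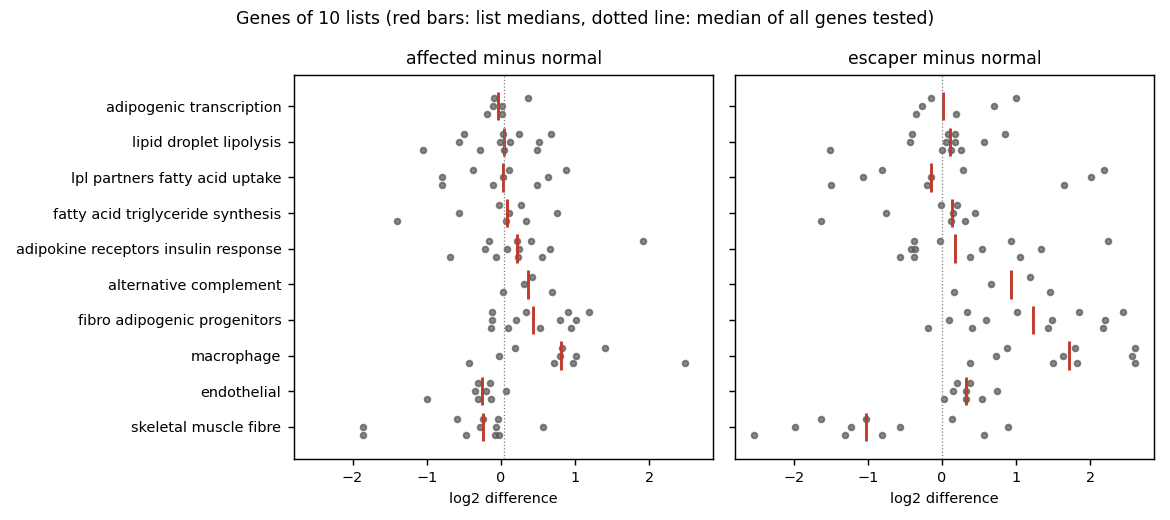
Log2 difference of each tested gene of 10 lists (grey points, staggered vertically for visibility) for affected minus normal and escaper minus normal, with list medians as red bars and the median of all genes tested as a dotted line. The adipogenic, lipid droplet, fatty acid uptake and synthesis lists have medians between −0.15 and 0.13, and the macrophage list has medians of 0.81 and 1.71.

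The list means of macrophage, fibro-adipogenic progenitor and endothelial genes were at their highest in escaper 2, the dog with the highest CFD and FABP4. Not every gene of these lists was. The next highest dogs for FABP4 were normal 2 and escaper 1. Their macrophage means were −1.57 and −1.25, and their fibro-adipogenic means −0.49 and −0.13. Their endothelial means were 0.10, the highest outside escaper 2, and −0.22. The mean over 10 macrophage genes ranged from −1.86 to −1.47 in normal dogs, from −1.24 to −0.15 in affected dogs and from −1.25 in escaper 1 to 1.26 in escaper 2. As for CFD, all dystrophic dogs lay above all normal dogs. Of these genes, 8, 10 and 10 were higher in the 3 comparisons, with medians of 0.81, 1.71 and 0.77. Without escaper 2, 8 of the 9 still tested were higher in the remaining escaper than in normal dogs, with a median of 0.38. LGALS3, which encodes galectin-3, was 2.48 higher in affected dogs and 2.55 higher in escapers (adjusted p = 0.125 and 0.189), the latter 1.27 without escaper 2. CD68 ranged from −0.17 to 0.57 over all dogs. TYROBP, 1 of the 2 genes of this list that were lower in affected dogs, was −0.44 for affected minus normal (adjusted p = 0.725), with affected 1 at −1.98. For escaper minus affected TYROBP was 1.31 (adjusted p = 0.800), or 0.43 without escaper 2. The part of macrophage RNA in the CFD result was not tested.

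The mean over 12 fibro-adipogenic progenitor and matrix genes ranged from −0.49 to −0.19 in normal dogs and from −0.54 to 0.76 in affected dogs, and was −0.13 in escaper 1 and 1.71 in escaper 2. Of these genes, 9, 11 and 11 were higher in the 3 comparisons, with medians of 0.43, 1.22 and 0.76. Without escaper 2, 7 of the 11 still tested were higher in the remaining escaper than in normal dogs, with a median of 0.05. GSN, gelsolin, was higher in every affected than in every normal dog (adjusted p = 0.230), as were 5.28% of probes. Its spots were saturated on 10 arrays, and the size of its difference is not given. DCN, the matrix proteoglycan decorin, was 2.44 higher in escapers than in normal dogs (adjusted p = 0.229), and 0.62 higher without escaper 2. PDGFRA, the marker by which these progenitors are sorted, was well above background on 6 arrays, 0 of them from normal dogs, and was 0.33 for affected minus normal (adjusted p = 0.542). The part of these cells in the results for CFD and FABP4 was not tested.

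The mean over 8 endothelial genes was 0.92 in escaper 2, the dog with the highest FABP4. It lay between −0.44 and 0.10 in the other 9 dogs, at −0.22 in escaper 1. In the 3 comparisons 1, 8 and 8 of the 8 genes were higher, with medians of −0.25, 0.32 and 0.57. PECAM1, the endothelial adhesion molecule, was at 1.14 in escaper 2 and between −0.99 and −0.07 in the others. KDR, a receptor of vascular growth factor, was −1.001 for affected minus normal (adjusted p = 0.213). Every affected dog lay below the normal dogs for KDR, as for 7.42% of probes. For escaper minus affected KDR was 1.02 (adjusted p = 0.800), or 0.59 without escaper 2. Both escapers lay above all affected dogs for KDR, as for 3.69% of probes. The mean over 11 muscle fibre genes was lowest in escaper 2, at −1.67, where LPL was also lowest. In the next lowest dogs for LPL, normal 1 and affected 3, the fibre means were 0.53 and 0.07, and in affected 1, with the next lowest fibre mean of −1.09, LPL was −0.93. Of the 11 fibre genes, 1, 3 and 3 were higher in the 3 comparisons, with medians of −0.25, −1.03 and −0.68. PYGM, muscle glycogen phosphorylase, differed by −1.85 in affected dogs and −2.53 in escapers from normal dogs (adjusted p = 0.311 and 0.196), the latter −1.46 without escaper 2. MYLPF, of the same list, went the other way, 0.89 higher in escapers than in normal dogs (adjusted p = 0.253). Both escapers lay above all normal dogs for MYLPF, as for 14.5% of probes. No probe carried the symbol CKM. The part of endothelial RNA in the FABP4 result, and of muscle fibre RNA in the LPL result, was not tested.

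**Figure D5:**
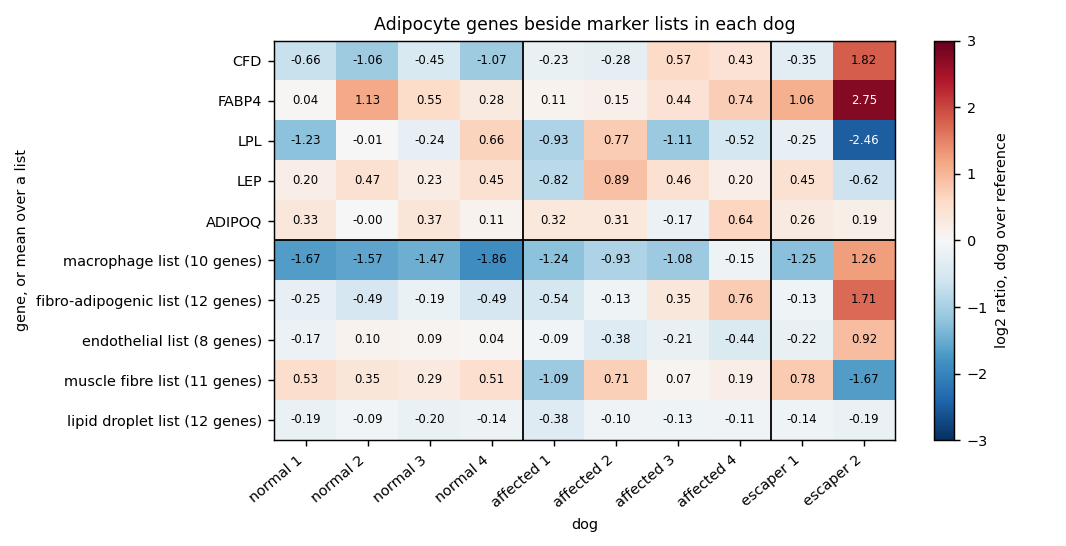
Log2 ratio of dog over reference in each dog (columns, by group) for CFD, FABP4, LPL, LEP and ADIPOQ and, below the line, the mean over the tested genes of 5 marker lists, with red above and blue below the reference. Escaper 2 has the highest values of CFD, FABP4 and the macrophage, fibro-adipogenic and endothelial lists, and the lowest of LPL and the muscle fibre list, while ADIPOQ and the lipid droplet list stay between −0.38 and 0.64 in every dog.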

How the data were processed

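Per the file headers, the scanner software was version 9.5.3.1 of Agilent Feature Extraction, and the columns used are mean intensities of spots and median intensities of their background in both colours. The authors also deposited a table of log2 ratios, each of which matched dog over reference of the processed signals (r = 1). Its columns were not centred (medians from −0.16 to 0.27), its processing is otherwise not stated, and it served as an alternative only.

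Signals were corrected with normexp (offset 50) and loess-normalised within arrays with control spots at weight 0 (limma 3.58.1, R 4.3.3). Control and outlier-flagged spots were left out, saturated ones stayed in, each ratio was oriented as dog over reference, and the 2 arrays of a dog were averaged, so the dog is the replicate. Of 42034 probes, 16130 were well above background on both arrays of at least 2 dogs, and 16008 of these had a value in every dog. One fit held 3 groups, with eBayes and Benjamini-Hochberg adjustment at 0.05. On simulated data for affected minus normal over 16008 probes, 84 of 100 changes of 2 and 97 of 100 of 4 on the log2 scale were recovered. The simulated noise was independent between dogs. Smaller changes and the escaper comparisons were not simulated, so these shares do not give the power for the differences described here.

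Symbols came from the files, updated through a dog gene table (assembly UU_Cfam_GSD_1.0, for names alone): 11312 probes matched it, 833 kept the file's symbol, and 10265 distinct symbols resulted. The brightest tested probe stood for each gene. The 5 genes and the 11 lists (adipogenic transcription, lipid droplet and lipolysis, LPL partners and fatty acid uptake, fatty acid and triglyceride synthesis, adipokine receptors and insulin response, alternative complement, fibro-adipogenic progenitors, brown and beige fat, macrophage, endothelial, muscle fibre) were chosen with earlier results of these data known. Genes for naming were, from each list, those that passed or, where none did, the 2 with the smallest p per comparison. Fixed markers and the 3 genes most correlated with each of the 5 were added. Of the list genes so chosen, RXRA, NR1H3, LPIN2, PCK1, ADRB3, CFI, TNFAIP6, C1QB, GPNMB, TIE1, CLDN5 and TTN are not described. LEPR and PLIN4 were named after their values were seen.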

Additional observations from a re-analysis of the deposited data

Results flagged for a closer look

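Within the groups of 4 dogs, 1 dog stood apart from the other 3 by Dixon's test in 6 of 104 groups checked, over 52 probes or genes. Chance flags about 1 in 20 such groups, and none of the 7 adipocyte probes was among them. BSCL2 was 0.43 in affected 1, against −0.14 to −0.08 in the other affected dogs. ZNF423 was −0.28 in affected 1, against 0.47 to 0.51. C5AR1 was −0.20 in affected 4, against −1.61 to −1.39. EMCN, an endothelial surface protein, was −0.38 in affected 2, against 0.05 to 0.13. ITGAM was −1.74 in normal 1, against −1.17 to −1.10 in the other normal dogs, and MGLL was −0.70 in normal 1, against −0.48 to −0.47.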

How the results depend on the processing

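Each CFD and FABP4 difference kept its direction under every other background correction, normalisation, filter, dye choice and model run, and changed its side of the threshold only as given here. ADIPOQ, close to 0, changed sign in affected minus normal without background subtraction (−0.10), in the deposited table (−0.43) and with the dog in Cy3 only (−0.039). It did so in escaper minus normal under median centring (−0.0021) and in Cy3 (−0.14), in escaper minus affected without subtraction (0.12), in the deposited table (0.44) and in Cy5 (0.0069), and in dystrophic minus normal without subtraction (−0.061) and in the deposited table (−0.28). LPL probe 2 was 0.012 for affected minus normal in Cy3. Median centring moved the median of all probes to −0.17 in escaper minus normal and to −0.18 in escaper minus affected.

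With all 20 arrays and the dog as a random block, escaper minus normal passed for FABP4 (1.41, adjusted p = 0.0268) and CFD (1.55, adjusted p = 0.0282). That fit used 1 correlation within dogs for all probes, estimated at 0.54. Over the 10 dogs, the 2 arrays of a dog correlated at r = 0.966 for FABP4 and 0.903 for CFD. The arrays of a dog thus counted in part as separate replicates, and these p-values can be too small. The number of probes called in affected minus normal, 3 as reported, was 19 without subtraction, 31 in the deposited table, 114 with the slide as a random block (estimated correlation −0.27), 113 with only the 2 groups compared, 7 in Cy5, 1 in Cy3 and 313 with all arrays. In escaper minus normal it went from 0 to 4 in the deposited table, 1 without a filter, 522 with the slide block and 984 with all arrays. Of list genes, 1 was called in affected minus normal with the slide block, with 2 groups and with all arrays, and 3 and 10 in escaper minus normal with the slide block and all arrays.

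Leaving out each dog in turn gave ranges for affected minus normal of −0.052 to 0.22 for ADIPOQ, −0.39 to 0.18 for LEP, −0.65 to 0.047 for LPL, −0.62 to 0.15 for LPL probe 2, −0.34 to 0.14 for LPL probe 3, −0.29 to 0.072 for FABP4 and 0.78 to 1.07 for CFD. For escaper minus normal they were −0.047 to 0.078, −0.96 to 0.11, −2.26 to −0.05, −1.47 to 0.48, −1.01 to −0.28, 0.56 to 2.25 and 0.47 to 2.63 in the same order. For escaper minus affected they were −0.20 to 0.073, −0.80 to 0.27, −2.01 to 0.20, −1.37 to 0.58, −0.85 to −0.11, 0.70 to 2.39 and −0.47 to 1.70. For dystrophic minus normal they were −0.023 to 0.14 for ADIPOQ, −0.57 to 0.016 for LPL probe 2 and 0.84 to 1.27 for CFD. Probes called ranged from 0 to 122, 0 to 3912 and 0 to 1747 in the 3 comparisons, and list genes called from 0 to 1, 0 to 43 and 0 to 28, highest without escaper 1, in affected minus normal equally without escaper 2. With 1 escaper left, its spread is assumed to be that of the other groups. No paired analysis was possible because the replicate numbers only follow the order of deposit. The cause of these shifts was not tested.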

Other observations

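TNMD, a gene of tendon that adipose tissue also expresses, was 6.06 in affected 4, 4.07 in escaper 2 and 1.51 in affected 3, and between −0.15 and 0.50 in the other 7 dogs. It was well above background on 9 arrays, and its difference of affected minus normal was 1.92 (limma adjusted p = 0.554), or 0.56 without affected 4. Of the brown and beige fat genes only PPARGC1A, a coactivator of mitochondrial genes that muscle fibres also express, was tested. It was between 0.04 and 0.22 in normal dogs, lower in all 4 affected dogs (−0.06 to −2.51) and at −0.33 and −2.94 in escapers 1 and 2. The adjusted p was 0.484 and 0.253 against normal dogs. Of all probes, 5.04% were likewise lower in every dystrophic than in every normal dog. The differences, −1.10 and −1.77, were −0.59 without affected 1 and −0.47 without escaper 2. UCP1, the uncoupling protein of brown fat, was well above background on 0 of 20 arrays.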
